A study of Arabidopsis thaliana with 12 samples.

Results

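The transcripts of class III peroxidases were followed by RNA sequencing in Arabidopsis thaliana rosettes aged 25 days, with 4 genotypes and 3 libraries of each. The genes were those whose deposited functional description holds the phrase "Peroxidase superfamily protein", which gave 67 of the 33323 loci in the tables. Of the 67, 66 are class III peroxidase loci and 1 is not: DOX1 (AT3G01420) encodes an alpha-dioxygenase that makes oxylipins. Another 7 class III loci carry other descriptions, among them PRXCA and PRXCB, and are described only where they border on the 67. The jazD cdk8-1 plants combined the mutations of jazD and cdk8-1. In jazD, a decuple mutant, JAZ1 through JAZ7 together with JAZ9, JAZ10 and JAZ13 are mutated, and these genes encode repressors of the jasmonate response. The cdk8-1 plants had a mutation in CDK8, whose kinase belongs to the module that attaches to Mediator, and Col-0 was the unmutated wild type. All were grown in soil at 20 °C with 16 h of light, and about 10 whole rosettes, without roots, were pooled for a library. The p-values thus measure the spread between pools and not between single plants.

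Class III peroxidases are secreted plant enzymes that carry heme and act mostly in the cell wall and the vacuole. With hydrogen peroxide they oxidise monolignols, phenolic esters and the tyrosines of wall proteins, which joins these into lignin and stiffens the wall, and some also make reactive oxygen species that loosen the wall or serve in defence against pathogens and insects. The family is large and rich in tandem copies, and many of its members are best known from roots.

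CDK8 (AT5G63610) had 2.73, 3.3 and 3.29 CPM (counts scaled to library size) in jazD cdk8-1 and 21.1, 20.1 and 20.1 in jazD, against 2.29, 2.74 and 2.64 in cdk8-1 and 17.4, 18.6 and 20.3 in Col-0, so the libraries matched their labels at this gene. Library totals ran between 17583467 and 21030374 counts. One library stood apart: jazD replicate 2 exceeded both other jazD libraries by more than 1.5-fold at 172 of 17575 genes with a mean of at least 1 CPM, against 40 to 108 genes in the other 11 libraries. Among the peroxidases it did so at 6 of 24, namely Prx37, AT4G08780, PRX71, AT4G37520, AT4G36430 and AT5G39580, and changes called in jazD cdk8-1 relative to jazD at these genes are given with and without it. Root hair markers were almost absent from the rosettes, with 0 of 8 tested, a summed level of at most 0.16 TPM (a level scaled to transcript length and to library size) in any library and RHD6, RSL4, EXPA7 and EXPA18 at 0. Floral markers summed to at most 2.25 TPM and root endodermis markers to at most 4.5 TPM in any library. The leaf markers were abundant, at 47933 to 49830 TPM in jazD cdk8-1, 40216 to 43849 in jazD, 55347 to 56987 in cdk8-1 and 49788 to 52663 in Col-0.

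The filter on low counts passed 30 of the 67 genes and kept 37 out of the main test. Of the 37, 9 were at 0 in all 12 libraries and the other 28 never exceeded 23 counts in any library. The members lie on all 5 chromosomes, with 13, 13, 8, 14 and 19 on chromosomes 1 to 5. With DOX1 included, their coding sequences are 933 to 1920 bases long with a median of 990. Levels between genes are compared here as TPM, which accounts for length, and changes between genotypes as log2 fold changes of counts with an approximate standard error. A gene was called when its adjusted p, over all 19059 genes tested, was at most 0.05 in edgeR's quasi-likelihood test.

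PRXR1 (AT4G21960) held most of the transcript of the 67 genes. Its mean over the 12 libraries was 2178 TPM, which was 84.7% of the summed TPM of the 67 genes. Among the 67, AT1G71695 followed at 166 TPM and AT3G28200 at 48.3 TPM, and every other member averaged 21.9 TPM or less. Outside the 67, PRXCB averaged 321 TPM and PRXCA 50.3 TPM over the 12 libraries. The summed TPM of the members was 3167, 3312 and 3345 in jazD cdk8-1 and 2975, 3009 and 2977 in jazD, against 2093, 1983 and 2014 in cdk8-1 and 2031, 2027 and 1921 in Col-0. Both genotypes with the jaz mutations were thus above both others in every library. Leaving PRXR1 out, the sum was 417 ± 22 TPM in jazD cdk8-1, 480.4 ± 48.6 in jazD, 334 ± 8.1 in cdk8-1 and 342 ± 9.05 in Col-0 (SD, n = 3 each), so that without PRXR1 the mean was lower in jazD cdk8-1 than in jazD, the opposite of the order with it. As summed CPM of all 67, jazD cdk8-1 was 1.58 times and jazD 1.59 times Col-0, so the order of these genotypes also depended on the scale.

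**Figure D1:**
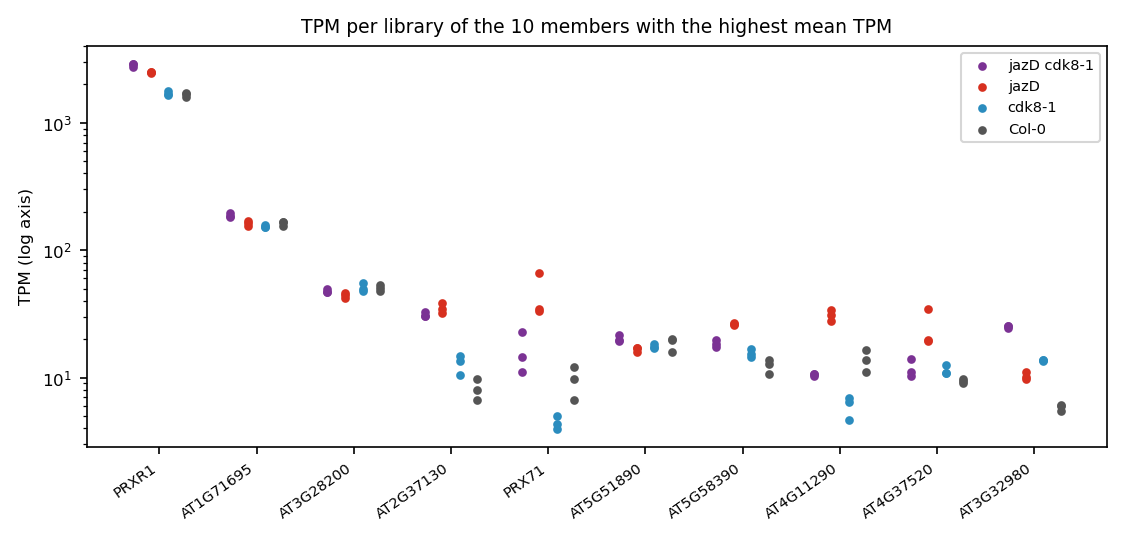
TPM in each of the 12 libraries (points, log axis) for the 10 peroxidases with the highest mean TPM, with the genotypes from left to right as jazD cdk8-1, jazD, cdk8-1 and Col-0. PRXR1 lies above all other members in every library, and PRX71 is highest in jazD and lowest in cdk8-1.

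PRXR1 is annotated as a peroxidase with no more specific role in the sources used here. It had 3583, 3730 and 3623 CPM in jazD cdk8-1 and 3617, 3422 and 3576 in jazD, against 2163, 2170 and 2084 in cdk8-1 and 2302, 2186 and 2142 in Col-0. In CPM the jazD and jazD cdk8-1 libraries overlapped, and all 6 lay above all 6 libraries with intact JAZ genes. As TPM these genotypes did not overlap, with 2764, 2906 and 2903 in jazD cdk8-1 and 2522, 2472 and 2525 in jazD. Limma on log2(TPM + 1) called PRXR1 higher in jazD cdk8-1 than in jazD, where the median of all genes was 0.13. PRXR1 rose in jazD relative to Col-0 by 0.68 ± 0.04 (edgeR, adjusted p = 6.01e-11) and in jazD cdk8-1 relative to cdk8-1 by 0.77 ± 0.04 (edgeR, adjusted p = 2.53e-11). Between jazD cdk8-1 and jazD the change was 0.04 ± 0.04 (edgeR, adjusted p = 0.489), and the interaction was 0.09 ± 0.06 (edgeR, adjusted p = 0.373). AT3G28200, next in level after AT1G71695 among the members, was called in none of the comparisons. It had 38.9, 38.3 and 39 CPM in jazD cdk8-1, 40.5, 40.5 and 38.3 in jazD, 37.3, 41.6 and 43.5 in cdk8-1 and 43.3, 39.9 and 45.8 in Col-0.

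Across the 30 genes tested, more were higher than lower in jazD relative to Col-0, and more were lower than higher in jazD cdk8-1 relative to jazD. In jazD relative to Col-0, 11 were higher and 3 lower, where 42.8% of all genes tested were called (21.8% higher and 20.9% lower). In jazD cdk8-1 relative to jazD, 2 were higher and 10 lower, where 35.8% of all genes were called (16.9% higher and 19.0% lower). In cdk8-1 relative to Col-0, 4 were higher and 9 lower, against 25.5% of all genes called (11.7% higher and 13.8% lower). The share of members called in either direction, 46.7%, 40% and 43.3% in these 3 comparisons, was near that of all genes in the first pair and above it in cdk8-1. The sizes were larger: called changes of at least 2-fold were seen in 9, 9 and 8 of the 30 genes (30%, 30% and 26.7%), against 6.57%, 6.02% and 3.46% of all genes. The median log2 fold change of the 30 was 0.15, -0.31 and -0.19, beside 0.00 over all genes in each comparison. On log2(TPM + 1) with limma, 7 members were higher and 9 lower in jazD cdk8-1 than in jazD, and the median of all genes there was 0.13. In cdk8-1 relative to Col-0, 6 were higher and 7 lower on log2(TPM + 1) and 6 and 6 on log2(TPM + 0.1), so the excess of lower calls there depended on the scale. These are descriptions of the 30 genes that passed the filter, not of all 67. The filter, applied alike to all genes, can pass a gene on the libraries of a single genotype, as for AT4G08780 in jazD and PRX72 in Col-0. Genes kept in that way are prone to large changes, so the shares of 2-fold changes are described and not tested.

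**Figure D2:**
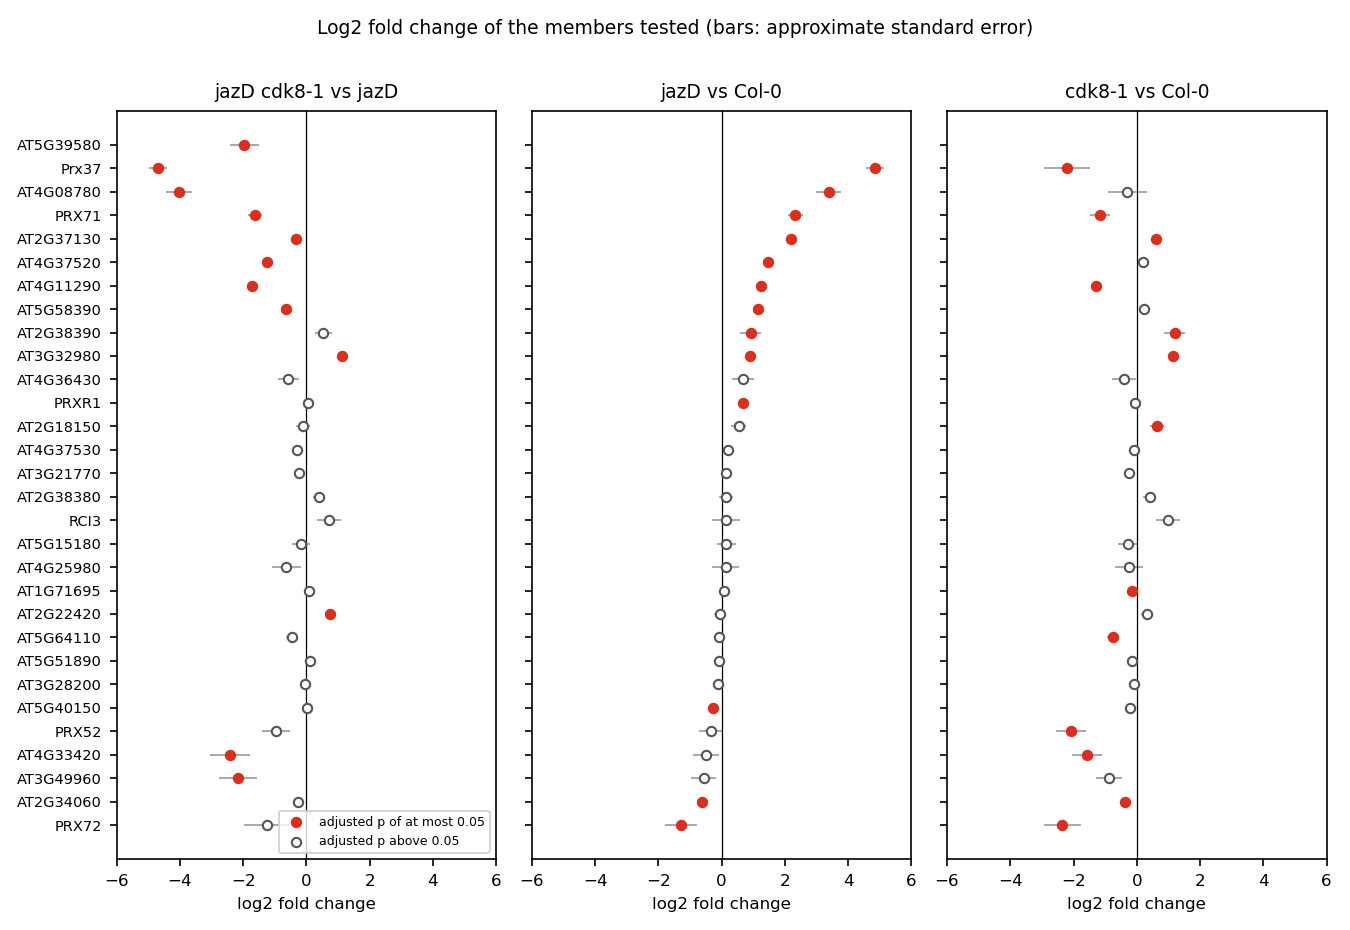
Log2 fold changes (points) with approximate standard errors (bars) of the tested peroxidases in jazD cdk8-1 relative to jazD, jazD relative to Col-0 and cdk8-1 relative to Col-0, ordered by the change in jazD. Filled points have an adjusted p of at most 0.05 in edgeR, and most genes at the top of the middle panel lie left of 0 in the left panel. AT5G39580 is not drawn against Col-0, where it had 2 counts in all.

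Prx37 (AT4G08770) had the largest change of the 30 genes in jazD cdk8-1 relative to jazD. Its product is annotated as an apoplastic peroxidase of the vascular bundles, and its overexpression is known to dwarf the plant and to raise the amount of wall-bound phenolics. It had 1.61, 0.813 and 1.71 CPM in jazD cdk8-1 and 25.2, 52.5 and 29.2 in jazD, against 0.349, 0.258 and 0.192 in cdk8-1 and 1.14, 1.81 and 0.8 in Col-0. Every jazD library lay far above all others, and jazD cdk8-1 overlapped Col-0. The log2 fold change was 4.84 ± 0.28 in jazD relative to Col-0, or 28.5-fold (edgeR, adjusted p = 9.36e-12), and -4.70 ± 0.28 in jazD cdk8-1 relative to jazD, or 26.0-fold lower (edgeR, adjusted p = 2.01e-11). Without jazD replicate 2 these were 4.44 and -4.31. Prx37 also fell in cdk8-1 relative to Col-0, by 2.21 ± 0.72 on the log2 scale (edgeR, adjusted p = 0.0274), on 7, 5 and 4 counts in the cdk8-1 libraries. That call was lost when Col-0 replicate 2 was left out (edgeR, adjusted p = 0.133) and without any 1 of the 3 cdk8-1 libraries (adjusted p of 0.0515 to 0.0885, edgeR). The interaction, -2.49 ± 1.04, was not called (edgeR, adjusted p = 0.112), but was called without jazD replicate 2 (-2.11, edgeR, adjusted p = 0.0189) and with no filter on low counts (-2.50, edgeR, adjusted p = 0.0106).

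AT4G08780 lies next to Prx37 on chromosome 4, with 1 gene between them, and their coding sequences are 93.8% identical. It had 0.111, 0.143 and 0.278 CPM in jazD cdk8-1 and 2.01, 4.52 and 2.55 in jazD, against 0.349, 0.103 and 0.24 in cdk8-1 and 0.208, 0.251 and 0.4 in Col-0. Only the jazD libraries stood out, and the other 3 genotypes overlapped. It rose by 3.38 ± 0.39 in jazD relative to Col-0 (edgeR, adjusted p = 3.56e-07) and fell by 4.03 ± 0.42 on the log2 scale in jazD cdk8-1 relative to jazD (edgeR, adjusted p = 1.39e-07), and without jazD replicate 2 the values were 2.96 and -3.61. Its interaction was -3.73 ± 0.83 (edgeR, adjusted p = 0.00331). With such similar copies, how reads were divided between Prx37 and AT4G08780 depends on the authors' counting, so their separate levels are uncertain.

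The promoters of this neighbouring pair are shown because both genes had their peak in jazD. These are the 250 bases before the annotated start in TAIR10.1 (RefSeq), at chr4:5600399-5600648 on the minus strand for Prx37 and chr4:5603855-5604104 on the plus strand for AT4G08780. Capitals mark the one run of at least 20 identical bases that they share, which is 31 bases long and begins 140 bases before the start of Prx37 and 190 bases before that of AT4G08780.
Prx37: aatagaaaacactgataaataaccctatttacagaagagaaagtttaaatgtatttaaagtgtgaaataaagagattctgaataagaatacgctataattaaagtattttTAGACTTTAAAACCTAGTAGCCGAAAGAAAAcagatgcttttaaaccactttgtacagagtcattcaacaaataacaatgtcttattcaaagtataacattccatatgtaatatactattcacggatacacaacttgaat
AT4G08780: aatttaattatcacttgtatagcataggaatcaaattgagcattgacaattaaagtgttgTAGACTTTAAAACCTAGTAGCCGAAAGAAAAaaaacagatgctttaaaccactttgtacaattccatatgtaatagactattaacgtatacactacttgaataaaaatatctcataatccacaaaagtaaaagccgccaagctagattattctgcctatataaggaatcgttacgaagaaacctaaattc
Neither holds a G-box, CACGTG, the motif known for MYC factors of the jasmonate response, on either strand. AT4G08780 holds a GCC-box, GCCGCC, known for ERF factors, 58 bases before its start.

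PRX71 (AT5G64120), a wall-bound peroxidase of lignification, rose in jazD and was lower without CDK8 both in the jazD background and alone. It had 14.7, 11 and 22.2 CPM in jazD cdk8-1 and 37.6, 71.1 and 38.2 in jazD, against 3.79, 5.12 and 4.23 in cdk8-1 and 10.2, 12.2 and 7 in Col-0. The jazD libraries were above all others and the cdk8-1 libraries below all others, while jazD cdk8-1 overlapped Col-0. The change was 2.33 ± 0.24 in jazD relative to Col-0 (edgeR, adjusted p = 6.14e-08) and -1.62 ± 0.22 in jazD cdk8-1 relative to jazD (edgeR, adjusted p = 5.43e-06), or 1.95 and -1.25 without jazD replicate 2. In cdk8-1 relative to Col-0 it was -1.16 ± 0.32 (edgeR, adjusted p = 0.0109), a call lost when Col-0 replicate 2 was left out (edgeR, adjusted p = 0.0684). The interaction of -0.45 ± 0.40 was not called (edgeR, adjusted p = 0.508).

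AT5G39580, whose coding sequence is 78.1% identical to that of PRX71, was close to undetected without the jaz mutations. It had 0.501, 0.239 and 1.67 CPM in jazD cdk8-1 and 2.34, 5.45 and 1.66 in jazD, against 0.0499, 0.155 and 0 in cdk8-1 and 0.0519, 0.0502 and 0 in Col-0. The 2 genotypes with jaz mutations lay above both others and overlapped each other at 1 library. With 2 counts in all of Col-0, the ratio of counts was 96.9 in jazD relative to Col-0 (95% counting interval 26.4 to 806, counting error only; edgeR, adjusted p = 2.78e-06). In jazD cdk8-1 relative to jazD the change was -1.96 ± 0.47 (edgeR, adjusted p = 0.00238), which was -1.29 without jazD replicate 2, -3.13 without jazD cdk8-1 replicate 3, and not called by DESeq2 (adjusted p = 0.0799).

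The promoters of PRX71 and AT5G39580 are shown because they held W-boxes, TTGACC or TTGACT on either strand, the motif known for WRKY factors, which are in capitals. They are the 250 bases before the start at chr5:25661008-25661257 and chr5:15849142-15849391, both on the minus strand in TAIR10.1 (RefSeq). The W-boxes lie 180, 68 and 49 bases before the start of PRX71 and 17 bases before that of AT5G39580. PRX72 (AT5G66390), which was called lower in jazD than in Col-0, also holds W-boxes, 201, 184 and 74 bases before its start. W-boxes were thus not limited to members that rose in jazD.
PRX71: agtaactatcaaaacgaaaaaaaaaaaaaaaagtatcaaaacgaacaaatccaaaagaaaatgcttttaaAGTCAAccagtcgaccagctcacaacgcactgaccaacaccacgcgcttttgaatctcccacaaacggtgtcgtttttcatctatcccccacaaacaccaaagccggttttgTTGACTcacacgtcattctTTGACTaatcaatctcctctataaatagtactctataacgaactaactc
AT5G39580: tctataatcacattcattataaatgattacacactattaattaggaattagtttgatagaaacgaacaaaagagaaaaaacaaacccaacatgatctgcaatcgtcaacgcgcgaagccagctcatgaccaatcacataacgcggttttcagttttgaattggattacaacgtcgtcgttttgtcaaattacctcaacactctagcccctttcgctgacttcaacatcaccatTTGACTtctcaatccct
A W-box was found in 19 of the 67 member promoters (28.4%) and in 28.4% of the promoters of all 27443 protein-coding genes, and in 6 of the 30 genes tested (20%). A GCC-box was found in 2 members (2.99%) and 1.87% of all genes, and a G-box in 3 members (4.48%), in 0 of the 30 tested and in 6.49% of all genes. A match is a stretch of letters, and binding was not measured.

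**Figure D3:**
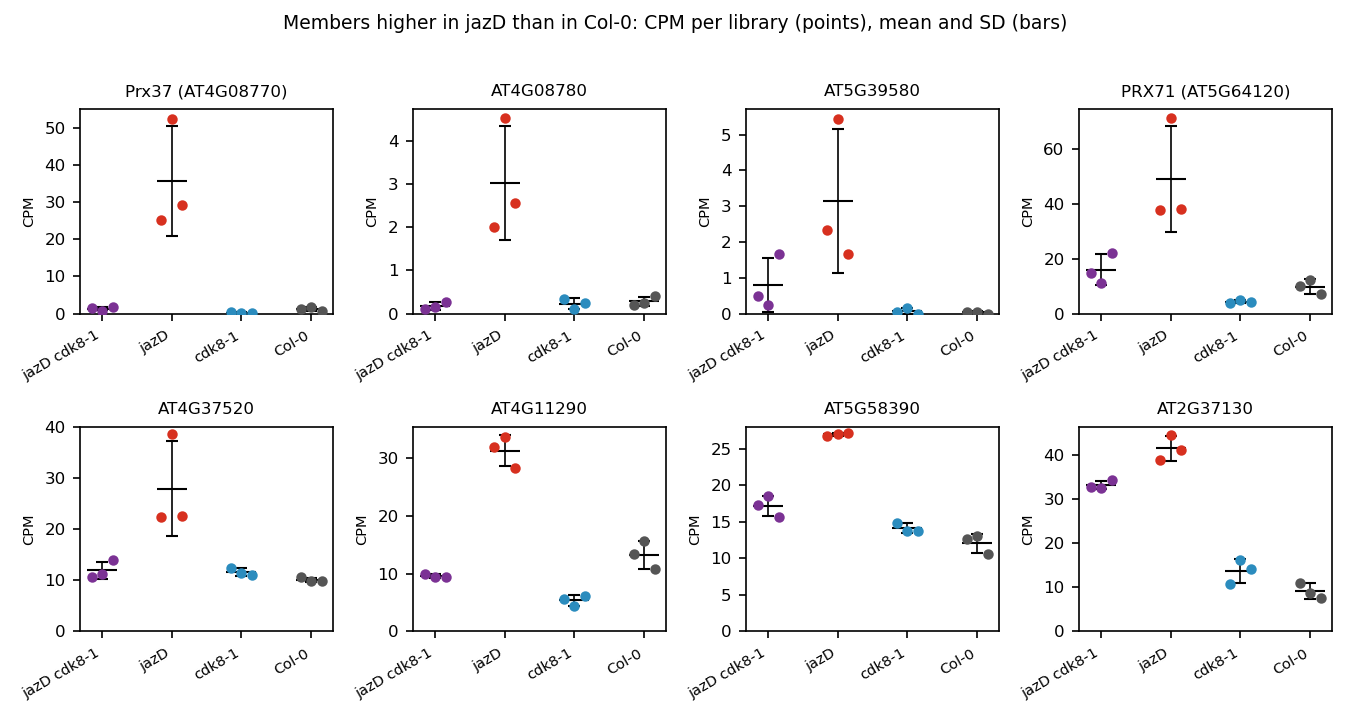
CPM per library (points) with mean and SD (black) for 8 peroxidases higher in jazD than in Col-0, with jazD cdk8-1, jazD, cdk8-1 and Col-0 from left to right and axes from 0. The jazD points are highest in every panel except that of AT5G39580, where 1 jazD cdk8-1 library reaches the lowest jazD library, and jazD cdk8-1 overlaps Col-0 at Prx37, lies below it at AT4G11290 and stays well above it at AT2G37130.

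AT4G11290, AT4G37520, AT5G58390 and AT2G37130 likewise rose in jazD and were lower in jazD cdk8-1, to different degrees. AT4G11290 had 9.96, 9.33 and 9.49 CPM in jazD cdk8-1 and 31.9, 33.5 and 28.3 in jazD, against 5.64, 4.39 and 6.15 in cdk8-1 and 13.3, 15.6 and 10.8 in Col-0. The 4 genotypes did not overlap, and both mutants of CDK8 lay below Col-0. The change was 1.24 ± 0.10 in jazD relative to Col-0 (edgeR, adjusted p = 3.19e-09), -1.71 ± 0.11 in jazD cdk8-1 relative to jazD (edgeR, adjusted p = 6.42e-11) and -1.29 ± 0.13 in cdk8-1 relative to Col-0 (edgeR, adjusted p = 1.81e-07). The interaction of -0.42 ± 0.17 was not called (edgeR, adjusted p = 0.113), but was with no filter on low counts (-0.43, edgeR, adjusted p = 0.0468).

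At AT4G37520, AT5G58390 and AT2G37130 the effect of cdk8-1 depended on the jaz background. AT4G37520 had 10.6, 11.3 and 13.9 CPM in jazD cdk8-1 and 22.4, 38.6 and 22.6 in jazD, against 12.4, 11.4 and 11 in cdk8-1 and 10.6, 9.83 and 9.9 in Col-0. Only jazD stood out, with a change of 1.47 ± 0.16 relative to Col-0 (edgeR, adjusted p = 1.47e-07), or 1.16 without jazD replicate 2. In jazD cdk8-1 relative to jazD it changed by -1.23 ± 0.15 (edgeR, adjusted p = 1.88e-06), or -0.92 without that library. Its interaction was -1.42 ± 0.23 (edgeR, adjusted p = 0.000199), or -1.11 without that library. AT5G58390 had 17.3, 18.5 and 15.7 CPM in jazD cdk8-1 and 26.8, 27 and 27.2 in jazD, against 14.9, 13.8 and 13.8 in cdk8-1 and 12.7, 13 and 10.6 in Col-0. Here the jazD libraries were again the highest, jazD cdk8-1 came next without overlap. The change was 1.16 ± 0.08 in jazD relative to Col-0 (edgeR, adjusted p = 1.42e-10) and -0.66 ± 0.08 in jazD cdk8-1 relative to jazD (edgeR, adjusted p = 6.33e-07), and the interaction was -0.88 ± 0.11 (edgeR, adjusted p = 1.33e-05). AT2G37130 had 32.8, 32.6 and 34.3 CPM in jazD cdk8-1 and 38.8, 44.6 and 41.2 in jazD, against 10.8, 16.2 and 14.1 in cdk8-1 and 11.1, 8.63 and 7.6 in Col-0. Both genotypes with jaz mutations were high at this gene, and jazD rose by 2.19 ± 0.11 relative to Col-0 (edgeR, adjusted p = 1.31e-12). Relative to jazD, jazD cdk8-1 changed by -0.32 ± 0.10 (edgeR, adjusted p = 0.0128), a call lost without jazD replicate 2 (edgeR, adjusted p = 0.0509) and with limma on log2(TPM + 1) (adjusted p = 0.279). In cdk8-1 relative to Col-0 the gene rose by 0.59 ± 0.13 (edgeR, adjusted p = 0.00179), and the interaction was -0.91 ± 0.16 (edgeR, adjusted p = 0.00045).

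AT3G32980 went the other way when CDK8 was mutated. It had 28.7, 27.3 and 27.7 CPM in jazD cdk8-1 and 12.3, 13.3 and 12.6 in jazD, against 14.5, 15.7 and 15.1 in cdk8-1 and 6.49, 6.87 and 7.15 in Col-0. The 4 genotypes did not overlap, and the combined mutant was the highest. It rose by 0.90 ± 0.08 in jazD relative to Col-0 (edgeR, adjusted p = 1.07e-08), by 1.14 ± 0.08 in cdk8-1 relative to Col-0 (edgeR, adjusted p = 6.69e-10) and by 1.13 ± 0.07 in jazD cdk8-1 relative to jazD (edgeR, adjusted p = 2.16e-11). The interaction was -0.01 ± 0.10 (edgeR, adjusted p = 0.963), a log2 difference close to 0 with a standard error of 0.10. The only other member called higher in jazD cdk8-1 than in jazD was AT2G22420, with 4.45, 4.45 and 5.28 CPM in jazD cdk8-1 and 2.67, 2.51 and 3.26 in jazD, against 2.84, 4.19 and 3.79 in cdk8-1 and 3.68, 2.56 and 2.45 in Col-0. The jazD cdk8-1 libraries lay above all others and the change was 0.76 ± 0.18 (edgeR, adjusted p = 0.00223).

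The closest relatives of AT3G32980 are PRXCB and PRXCA, whose coding sequences are 84.4% and 83.6% identical to it, which share 90.7% of their bases with each other and which lie with 1 gene between them on chromosome 3. Both are wall peroxidases of cell elongation that are thought to make hydrogen peroxide in defence, and neither carries the description that chose the 67 genes. PRXCA (AT3G49110) had 27.9, 28.7 and 24.6 CPM in jazD cdk8-1 and 145, 162 and 144 in jazD, against 13, 11.7 and 14 in cdk8-1 and 43.5, 40.9 and 36.7 in Col-0. PRXCB (AT3G49120) had 498, 511 and 516 CPM in jazD cdk8-1 and 459, 529 and 416 in jazD, against 231, 221 and 229 in cdk8-1 and 179.5, 159 and 152 in Col-0. PRXCA was thus low in both mutants of CDK8 and PRXCB in neither. Both rose in jazD, PRXCA by 1.90 ± 0.07 (edgeR, adjusted p = 1.72e-15) and PRXCB by 1.52 ± 0.07 (edgeR, adjusted p = 9.83e-14). In jazD cdk8-1 relative to jazD, PRXCA changed by -2.48 ± 0.07 (edgeR, adjusted p = 1.05e-16) and PRXCB by 0.12 ± 0.07 (edgeR, adjusted p = 0.174). Without jazD replicate 2, PRXCB was called higher there (0.21; edgeR, adjusted p = 0.00972). In cdk8-1 relative to Col-0 PRXCA fell by 1.64 ± 0.08 on the log2 scale (edgeR, adjusted p = 7.42e-12) while PRXCB rose by 0.47 ± 0.07 (edgeR, adjusted p = 2.11e-05). Reads that fit several of these 3 genes were divided by the authors' tool, so part of each value may belong to its relatives.

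**Figure D4:**
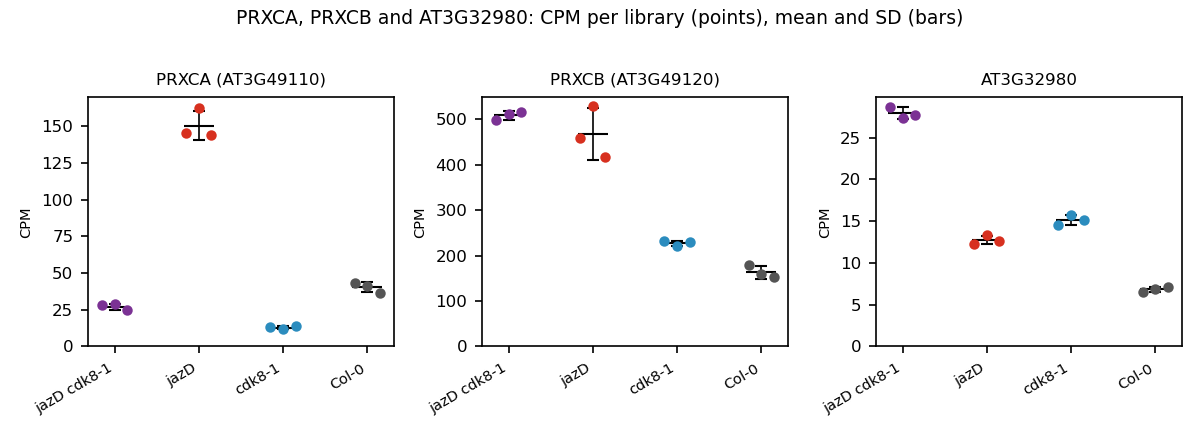
CPM per library (points) with mean and SD (black) for PRXCA, PRXCB and AT3G32980, with jazD cdk8-1, jazD, cdk8-1 and Col-0 from left to right and axes from 0. All 3 are higher in jazD than in Col-0, and in jazD cdk8-1 relative to jazD PRXCA is lower, PRXCB overlaps and AT3G32980 is higher.

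PRX72 and PRX52, which are tied to lignin in stems, had few counts in these rosettes and fell in cdk8-1. PRX72 (AT5G66390), which acts in lignin synthesis, had 0.222, 0 and 0.185 CPM in jazD cdk8-1 and 0.327, 0.491 and 0.118 in jazD, against 0.0998, 0.258 and 0.0961 in cdk8-1 and 0.623, 1.15 and 0.6 in Col-0. Every mutant library was below every Col-0 library. The change was -2.36 ± 0.58 in cdk8-1 relative to Col-0 (edgeR, adjusted p = 0.00428) and -1.28 ± 0.50 in jazD relative to Col-0 (edgeR, adjusted p = 0.0448), the second lost by DESeq2 (adjusted p = 0.0994) and in fits that left out Col-0 replicate 2 (edgeR, adjusted p = 0.223), jazD replicate 1 (0.0907), jazD replicate 3 (0.165), or replicate 3 of cdk8-1 or of jazD cdk8-1 (0.0502 each). PRX52 (AT5G05340), likewise a lignin peroxidase, had 0.278, 0.239 and 0.509 CPM in jazD cdk8-1 and 0.49, 0.835 and 0.711 in jazD, against 0.0499, 0.207 and 0.336 in cdk8-1 and 1.09, 0.953 and 0.55 in Col-0. The cdk8-1 and Col-0 libraries did not overlap, with a change of -2.08 ± 0.48 (edgeR, adjusted p = 0.00269). AT5G51890, annotated for lignification of tracheary elements in roots, was called in none of the comparisons and had 18.2, 18.3 and 19.4 CPM in jazD cdk8-1, 17.8, 15.9 and 17.6 in jazD, 16.2, 16.5 and 15.3 in cdk8-1 and 15.6, 18.5 and 19.7 in Col-0.

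**Figure D5:**
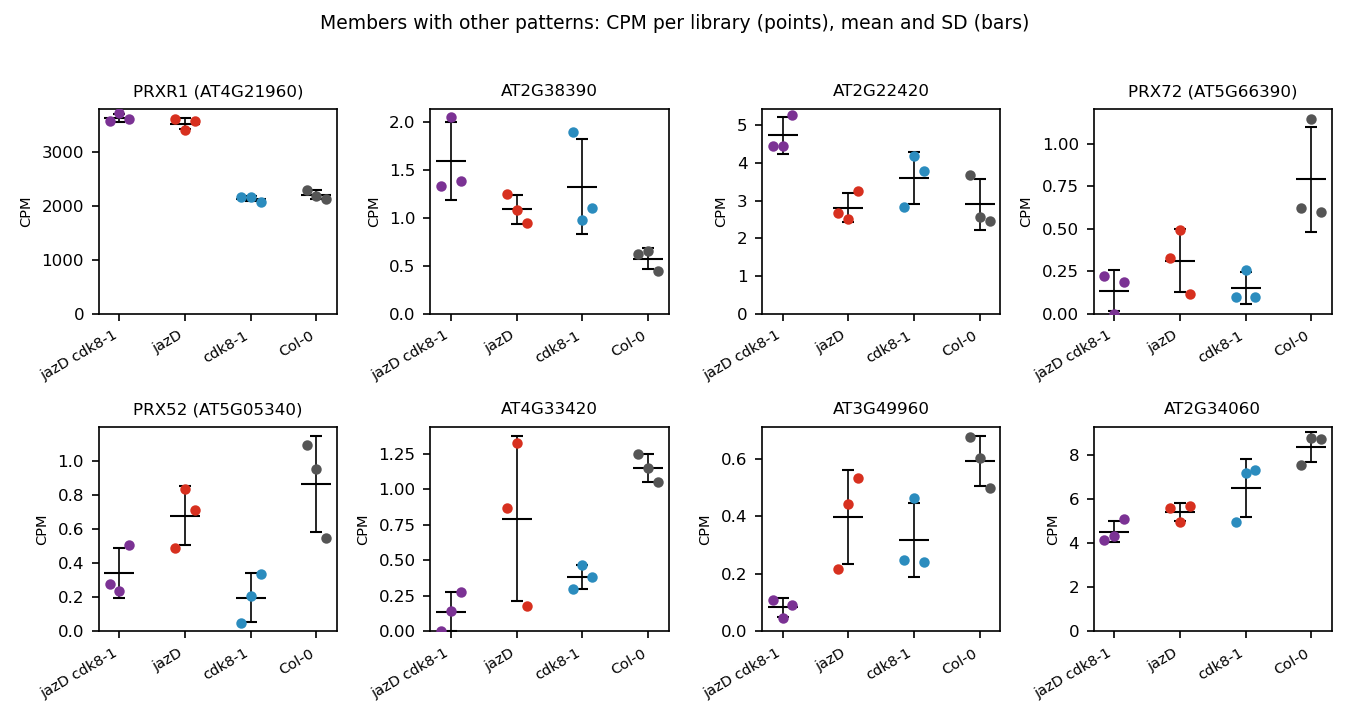
CPM per library (points) with mean and SD (black) for 8 peroxidases with other patterns, with jazD cdk8-1, jazD, cdk8-1 and Col-0 from left to right and axes from 0. PRXR1 is high in both genotypes with jaz mutations, and PRX72, PRX52, AT4G33420, AT3G49960 and AT2G34060 have their highest mean in Col-0.

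Of the other members with low counts, AT4G33420 and AT3G49960 had their lowest mean in the combined mutant. AT3G49960, known for expression in root hairs, had 0.111, 0.0478 and 0.0926 CPM in jazD cdk8-1 and 0.218, 0.442 and 0.533 in jazD, against 0.249, 0.465 and 0.24 in cdk8-1 and 0.675, 0.602 and 0.5 in Col-0. All jazD cdk8-1 libraries lay below the other 9, and the change was -2.17 ± 0.60 relative to jazD (edgeR, adjusted p = 0.00731). AT4G33420 had 0, 0.143 and 0.278 CPM in jazD cdk8-1 and 0.871, 1.33 and 0.178 in jazD, against 0.299, 0.465 and 0.384 in cdk8-1 and 1.25, 1.15 and 1.05 in Col-0. The jazD and jazD cdk8-1 libraries overlapped at this gene, and the change between them of -2.41 ± 0.63 (edgeR, adjusted p = 0.00449) was lost without jazD replicate 2 (-1.82, edgeR, adjusted p = 0.0503). In bulk rosettes, fewer cells that make a transcript and less transcript per cell cannot be told apart.

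Smaller falls were called at AT2G34060, AT5G64110, AT5G40150 and AT1G71695. AT2G34060 had 4.17, 4.35 and 5.09 CPM in jazD cdk8-1 and 5.61, 4.96 and 5.69 in jazD, against 4.99, 7.18 and 7.35 in cdk8-1 and 7.58, 8.78 and 8.75 in Col-0. All 9 mutant libraries were below Col-0, with a change of -0.63 ± 0.14 in jazD (edgeR, adjusted p = 0.000702) and -0.88 ± 0.14 in jazD cdk8-1 (edgeR, adjusted p = 3.77e-05). In cdk8-1 it was -0.36 ± 0.13 (edgeR, adjusted p = 0.045), which dropped to -0.20 and was not called without cdk8-1 replicate 1 (edgeR, adjusted p = 0.249), nor without Col-0 replicate 2 (0.132), Col-0 replicate 3 (0.127), jazD replicate 3 (0.0519) or jazD cdk8-1 replicate 2 (0.0548). AT5G64110, the neighbour of PRX71, fell in cdk8-1 relative to Col-0 by 0.74 ± 0.19 on the log2 scale (edgeR, adjusted p = 0.00711), with 1.7, 1.96 and 2.21 CPM in cdk8-1 against 3.58, 3.16 and 3.1 in Col-0. In jazD it changed by -0.07 ± 0.18 (edgeR, adjusted p = 0.805), where PRX71 rose. AT5G40150 had 14.4, 11.5 and 13.1 CPM in jazD against 15.7, 14.3 and 17 in Col-0, with overlap, and its change of -0.27 ± 0.09 (edgeR, adjusted p = 0.017) was lost without jazD replicate 2 (edgeR, adjusted p = 0.135) or Col-0 replicate 3 (0.096). AT1G71695, second in level among the members, had 187, 191 and 195 CPM in jazD cdk8-1 and 193, 172 and 184 in jazD, against 149.7, 161 and 159 in cdk8-1 and 168, 173 and 181 in Col-0. The cdk8-1 libraries were the lowest, by -0.15 ± 0.05 relative to Col-0 (edgeR, adjusted p = 0.0223), a call lost in fits without Col-0 replicate 3 (edgeR, adjusted p = 0.108) or cdk8-1 replicate 1 (0.106) and with limma on log2(TPM + 1) (adjusted p = 0.282).

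The members higher in cdk8-1 than in Col-0 were AT2G37130 and AT3G32980, given above, and AT2G38390 and AT2G18150. AT2G38390 had 1.33, 2.06 and 1.39 CPM in jazD cdk8-1 and 1.25, 1.08 and 0.948 in jazD, against 1.9, 0.982 and 1.1 in cdk8-1 and 0.623, 0.652 and 0.45 in Col-0. Every mutant library exceeded Col-0. It was 2.3-fold higher in cdk8-1 (edgeR, adjusted p = 0.00883), but not called when cdk8-1 replicate 1 was left out (log2 0.86; edgeR, adjusted p = 0.0806), and the change in jazD was 0.92 ± 0.34 (edgeR, adjusted p = 0.0332), lost without jazD replicate 1 (edgeR, adjusted p = 0.104), jazD replicate 2 (0.0634), Col-0 replicate 1 (0.0541) or Col-0 replicate 3 (0.115). AT2G18150 had 2.1, 1.5 and 1.73 CPM in cdk8-1 against 1.14, 0.953 and 1.3 in Col-0, a change of 0.65 ± 0.22 (edgeR, adjusted p = 0.0379) that DESeq2 did not call (adjusted p = 0.128) and that was lost without cdk8-1 replicate 1 (edgeR, adjusted p = 0.163), cdk8-1 replicate 3 (0.0677), Col-0 replicate 1 (0.0789) or Col-0 replicate 2 (0.137).

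The combined mutant was also set against the wild type and against cdk8-1. These comparisons share libraries with those above and are given for the members' own values. In jazD cdk8-1 relative to Col-0, 10 of the 30 were higher and 8 lower, against 32.4% of all genes called (16.3% higher and 16.1% lower), and 8 were changed at least 2-fold (26.7%, against 4.67% of all genes). AT3G32980 rose by 2.03 ± 0.07 (edgeR, adjusted p = 5.82e-15) and AT2G37130 by 1.87 ± 0.12 (edgeR, adjusted p = 6.25e-11), while Prx37 changed by 0.14 ± 0.49 (edgeR, adjusted p = 0.868). In jazD cdk8-1 relative to cdk8-1, 9 were higher and 2 lower, against 24.0% of all genes (12.7% higher and 11.2% lower), and 5 were changed at least 2-fold (16.7%, against 2.86%). The lower ones were AT2G34060 and AT3G49960. The call at AT2G34060 was lost without cdk8-1 replicate 2 (edgeR, adjusted p = 0.0554) or 3 (0.0595). That at AT3G49960, on 5 counts in jazD cdk8-1 and 19 in cdk8-1, was lost by DESeq2 (adjusted p = 0.0953), with no filter (0.0546) and without cdk8-1 replicate 2 (0.152) or any 1 of the jazD cdk8-1 libraries (0.052 to 0.122, edgeR). In the same comparison PRX71 rose by 1.88 ± 0.30 (edgeR, adjusted p = 7.57e-05), AT2G37130 by 1.28 ± 0.11 (edgeR, adjusted p = 1.22e-08) and AT4G11290 by 0.82 ± 0.14 (edgeR, adjusted p = 0.00011), so these genes were higher with the jaz mutations also where CDK8 was mutated. Prx37 rose there too, by 2.34 ± 0.70 (edgeR, adjusted p = 0.0178), on 16 counts in cdk8-1. That call was lost without cdk8-1 replicate 2 (edgeR, adjusted p = 0.0529) or 3 (0.0646) or jazD cdk8-1 replicate 3 (0.0808). AT5G39580 rose by 3.50 ± 0.96 (edgeR, adjusted p = 0.01), on 4 counts in cdk8-1. Its call was lost without jazD cdk8-1 replicate 3 (edgeR, adjusted p = 0.138) and with limma on log2(TPM + 1) (adjusted p = 0.0991). The interaction was called at 5 of the 30 genes, 1 higher and 4 lower, against 16.5% of all genes (8.16% higher and 8.39% lower), and 2 of these were at least 2-fold (6.67%, against 2.38%).

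Several of the genes that changed have a near-identical copy, and the values of the copies are given here or above, with no test of the difference between them. Of 2701 pairs among 74 loci, 6 pairs had coding sequences at least 90% identical. AT4G37530, adjacent to AT4G37520 and 92.4% identical to it, was called in none of the comparisons, with 3.84, 4.45 and 4.59 CPM in jazD cdk8-1, 4.47, 6.49 and 4.92 in jazD, 4.69, 3.62 and 4.9 in cdk8-1 and 5.81, 4.57 and 3.6 in Col-0. AT2G38380, adjacent to AT2G38390 and 90.6% identical, changed by 0.14 ± 0.21 in jazD (edgeR, adjusted p = 0.642) and by 0.40 ± 0.20 in cdk8-1 (edgeR, adjusted p = 0.161). Both were called higher in jazD cdk8-1 than in Col-0, AT2G38380 by 0.53 ± 0.20 (edgeR, adjusted p = 0.045) and AT2G38390 by 1.47 ± 0.32 (edgeR, adjusted p = 0.00106). The call at AT2G38380 was lost by DESeq2 (adjusted p = 0.0833) and without Col-0 replicate 1 or 2, cdk8-1 replicate 3, jazD replicate 1 or any 1 of the jazD cdk8-1 libraries (edgeR, adjusted p of 0.0503 to 0.201). AT2G18140, adjacent to AT2G18150 and 92% identical to it, was at 0 in all libraries. AT1G05240 and PRX2 are 100% identical over their coding sequences and had at most 4 counts in any library, so neither passed the filter.

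Other tested members called in none of the comparisons were RCI3, the cold-inducible cationic peroxidase, AT3G21770, AT4G25980, AT4G36430 and AT5G15180, which makes 8 with AT3G28200, AT4G37530 and AT5G51890. RCI3 had 0.667, 0.717 and 0.88 CPM in jazD cdk8-1 and 0.272, 0.688 and 0.415 in jazD, against 1.05, 0.517 and 0.961 in cdk8-1 and 0.519, 0.401 and 0.35 in Col-0. Its value in cdk8-1 relative to Col-0 was 0.99 ± 0.38 (edgeR, adjusted p = 0.0597), with overlap between the libraries.

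Some members below the filter still had counts that differed between genotypes. PER4 (AT1G14540) had 4, 1 and 2 counts in jazD cdk8-1 and 12, 23 and 6 in jazD, against 4, 3 and 3 in cdk8-1 and 3, 3 and 3 in Col-0. PRX25 (AT2G41480), a wall-bound peroxidase of lignification, had 0, 1 and 1 counts in jazD cdk8-1 and 2, 1 and 6 in jazD, against 8, 4 and 8 in cdk8-1 and 21, 10 and 11 in Col-0. AT5G64100, adjacent to AT5G64110, had 9, 3 and 10 counts in jazD cdk8-1 and 9, 19 and 10 in jazD, against 0, 2 and 2 in cdk8-1 and 2, 1 and 0 in Col-0. PER4 was highest in jazD, AT5G64100 in both genotypes with jaz mutations and PRX25 in Col-0. With no filter on low counts, 24319 loci were tested, among them 28 of the 37 members below the filter, and 5 of the 28 were called in at least 1 comparison of genotypes. The share of all 24319 loci called in that fit is not given here, so this count is no result about the family. PER4 was then called higher in jazD than in Col-0 (edgeR, adjusted p = 0.00125) and lower in jazD cdk8-1 than in jazD (edgeR, adjusted p = 0.000429). AT5G64100 was called higher (edgeR, adjusted p = 5.61e-05) and PRX25 lower (edgeR, adjusted p = 0.003) in jazD than in Col-0. AT3G03670, with 0 counts in jazD cdk8-1 and 1, 7 and 4 in jazD, against 0 in cdk8-1 and 1 in Col-0, was called higher in jazD than in Col-0 (edgeR, adjusted p = 0.0334) and lower in jazD cdk8-1 than in jazD (edgeR, adjusted p = 0.00866). PER64 (AT5G42180), known for the Casparian strip of the root, had at most 2 counts in any library, and the root endodermis markers had 1 of 7 tested. DOX1 had 0, 3 and 19 counts in jazD cdk8-1, 2, 3 and 4 in jazD, 0, 0 and 2 in cdk8-1 and 5, 1 and 1 in Col-0, and 1 jazD cdk8-1 library held 19 of its 40 counts. It was called higher in jazD cdk8-1 than in cdk8-1 with no filter (edgeR, adjusted p = 0.018).

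The supply of hydrogen peroxide and of lignin precursors was followed in lists of other genes. The counts in these lists and in the marker lists below stand beside the shares of all genes called. These were 21.8% higher and 20.9% lower in jazD relative to Col-0, and 16.9% and 19.0% in jazD cdk8-1 relative to jazD. In cdk8-1 relative to Col-0 they were 11.7% and 13.8%. The lists are small, and none was tested as a set. Of the 7 NADPH oxidase genes listed, which make the superoxide that gives rise to hydrogen peroxide, 2 were tested, and in jazD relative to Col-0 1 was higher and 1 lower. RBOHD averaged 77.2 ± 1.79 CPM in jazD cdk8-1 and 184 ± 12.3 in jazD, against 42 ± 3.6 in cdk8-1 and 40.1 ± 3.54 in Col-0 (SD, n = 3 each). It rose by 2.20 ± 0.07 in jazD relative to Col-0 (edgeR, adjusted p = 7.23e-17) and the change was -1.26 ± 0.06 in jazD cdk8-1 relative to jazD (edgeR, adjusted p = 9.75e-13). RBOHF fell in jazD relative to Col-0 by 0.27 ± 0.08 on the log2 scale (edgeR, adjusted p = 0.0107) and in cdk8-1 relative to Col-0 by 0.35 ± 0.08 (edgeR, adjusted p = 0.00336), with an interaction of 0.47 ± 0.12 (edgeR, adjusted p = 0.00806). RBOHD (AT5G47910), which rose in jazD, lies between AT5G44490 and AT5G56910 on chromosome 5. That interval holds 926 of the 19059 genes tested, and 23 of the 38 genes called and at least 8-fold lower in jazD. The part of that interval in the change of RBOHD was not tested, and AT5G51890 is the only member tested that lies there.

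Catalases and ascorbate peroxidases, which remove hydrogen peroxide, had 2 of 10 genes higher and 4 lower in jazD. CAT3 averaged 6414 CPM in jazD cdk8-1 and 7855 in jazD, against 2214 in cdk8-1 and 2985 in Col-0, a rise in jazD of 1.40 ± 0.05 (edgeR, adjusted p = 2.88e-16), and CAT2 fell in jazD by 0.89 ± 0.05 on the log2 scale (edgeR, adjusted p = 3.68e-12). Laccases, the copper enzymes that also polymerise lignin, had 2 of 10 higher and 6 lower in jazD, and 5 higher and 1 lower in jazD cdk8-1 relative to jazD. LAC4 changed by -0.45 ± 0.07 in jazD relative to Col-0 (edgeR, adjusted p = 3.65e-05) and by 0.30 ± 0.07 in jazD cdk8-1 relative to jazD (edgeR, adjusted p = 0.00346), and LAC17 by -0.70 ± 0.09 in jazD relative to Col-0 (edgeR, adjusted p = 1.55e-06). Monolignol genes had 4 of 17 higher and 6 lower in jazD and 3 higher and 5 lower in jazD cdk8-1 relative to jazD, with medians of -0.09 and -0.07.

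The summed level of the markers of xylem and secondary walls was 98.2 to 105 TPM in jazD cdk8-1 and 56.2 to 61.4 in jazD, against 108 to 116 in cdk8-1 and 79.7 to 89 in Col-0, and 6 of 9 tested were lower in jazD than in Col-0 while 4 were higher in jazD cdk8-1 than in jazD. The jazD libraries were thus the lowest in this sum, but not at each marker. CESA8 averaged 8.24 ± 0.386 CPM in jazD cdk8-1 and 8.79 ± 0.874 in jazD (SD, n = 3 each). In cdk8-1 relative to Col-0, 1 of the 9 was higher (XCP1, 1.04 ± 0.07; edgeR, adjusted p = 1.86e-10) and 1 lower (CESA8, -0.34 ± 0.09; edgeR, adjusted p = 0.00794), with a median of -0.04. In jazD cdk8-1 relative to Col-0, 1 was higher (XCP1, 0.79 ± 0.07, edgeR, adjusted p = 6.99e-09) and 3 were lower, with a median of -0.24. The sum was above Col-0 in both of these genotypes, so it did not stand for the markers as a group. Senescence markers summed to 55 to 63.8 TPM in jazD cdk8-1 and 63.5 to 75.8 in jazD, against 42.9 to 46.7 in cdk8-1 and 44.8 to 55.1 in Col-0, so that jazD was highest but overlapped jazD cdk8-1. In jazD cdk8-1 relative to Col-0, 1 of the 4 tested was higher (PPH, 0.41 ± 0.05, edgeR, adjusted p = 1.44e-06). Another 1 was lower (SAG13, -1.47 ± 0.35, edgeR, adjusted p = 0.00251), so this sum did not stand for the group either. The part of either marker list in the peroxidase results was not tested.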

How the data were processed

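RNA was measured in pools of rosettes, 3 libraries in each of 4 genotypes. The authors deposited expected counts from RSEM 1.2.25 with TAIR10, per the submitters' processing notes, and so were the TPM values in the authors' second table. Not given in the sources used here are the strand protocol, the aligner and any sequencing batches. Of the expected counts 96.58% were whole, and all were rounded before testing.

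The genes and lists were chosen with earlier results of these data known. In edgeR 4.0.16 (R 4.3.3), filterByExpr kept 19059 of 33323 loci, TMM factors were 0.9543 to 1.056, and a single quasi-likelihood fit over the 12 libraries had 1 mean for each genotype, leaving 8 residual degrees of freedom (biological coefficient of variation 5.07%). The interaction is the change in jazD cdk8-1 relative to jazD, less the change in cdk8-1 relative to Col-0. Tests were 2-sided, with Benjamini-Hochberg adjustment over all genes tested. CPM used TMM-scaled library sizes. The standard error is the size of the log2 fold change divided by the square root of the F statistic, and it can be too small at low counts. Where a group had 1 to 3 counts, a ratio of counts is given with a 95% interval of counting error.

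Named genes were up to 10 called rises and 10 called falls per comparison, the 10 highest by TPM, the tested members of lowest and highest average level, members of known role, and from the class III loci outside the 67, like each list of other genes, up to 3 genes per comparison with the smallest adjusted p. AT4G37530, AT5G64100, DOX1, AT3G03670, AT2G18140, AT1G05240 and PRX2 were added after their values were seen. Names and promoters came from the TAIR10.1 annotation (RefSeq), which matched 32835 loci and all 67 members. The files give no coordinates, and 3 genes of the lists whose names did not match that annotation were left out, with 95 kept. Promoters were searched in Python 3.11.15, and coding sequences were aligned with Biopython 1.88. Alternatives were a replicate block, DESeq2 size factors, no filter on low counts, DESeq2 1.42.0, limma 3.58.1 on log2(TPM + 1) and log2(TPM + 0.1), and leaving out each library.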

Additional observations from a re-analysis of the deposited data

Results flagged for a closer look

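The effect of cdk8-1 differed between plants with and without the jaz mutations at 5 of the 30 peroxidases tested, by the interaction term in edgeR. That is 16.7% of the members tested, against 16.5% of all genes. It was lower with the jaz mutations at AT5G58390 (-0.88, adjusted p = 1.33e-05, edgeR), AT4G37520 (-1.42, adjusted p = 0.000199, edgeR), AT2G37130 (-0.91, adjusted p = 0.00045, edgeR) and AT4G08780 (-3.73, adjusted p = 0.00331, edgeR). At AT2G37130 the gene rose in cdk8-1 relative to Col-0 and fell in jazD cdk8-1 relative to jazD, and at the other 3 a change was called only in the second of these. At AT1G71695 the interaction was 0.22 (adjusted p = 0.0302, edgeR). That call was lost when Col-0 replicate 3, cdk8-1 replicate 1 or 3, jazD replicate 2 or 3, or jazD cdk8-1 replicate 2 or 3 was left out, with adjusted p of 0.0531 to 0.115 (edgeR).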

How the results depend on the processing

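Of 174 log2 fold changes of the named peroxidases and the 4 tested class III genes outside the 67, 90 were called, 0 changed direction with a call under any of the 18 alternatives, and 32 lost their call under at least 1. With limma on log2(TPM + 1) and on log2(TPM + 0.1), 7 members were higher in jazD cdk8-1 than in jazD, against 2 in the main count, and 5 were lower in jazD cdk8-1 than in Col-0, against 8. On these scales the median of all genes in jazD cdk8-1 relative to jazD was 0.13 and 0.15, beside 0.00 by TMM, and the calls added include PRXR1, at 0.19 on log2(TPM + 1). Members lower in jazD cdk8-1 than in cdk8-1 were 1 in place of 2 under DESeq2 and log2(TPM + 1). Leaving out single libraries gave 2 to 5 members higher in cdk8-1 than in Col-0, 6 to 10 higher and 5 to 9 lower in jazD cdk8-1 than in Col-0, 0 to 2 lower in jazD cdk8-1 than in cdk8-1, and 0 to 2 with a higher interaction.

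The summed TPM of the members relative to Col-0 was 1.64 in jazD cdk8-1, 1.5 in jazD and 1.02 in cdk8-1. As summed CPM it was 1.58, 1.59 and 0.962, and without PRXR1, an alternative chosen after seeing the data, 1.22, 1.41 and 0.978. For jazD, leaving out single libraries gave 1.47 to 1.51. Replicate numbers did not pair the libraries: deviations of same-numbered libraries correlated at -0.0971 to 0.0735, and 1 of 12 libraries correlated best with its own number. With the replicate block the counts stayed as they were except that 5 in place of 4 members had a lower interaction, the one gained being Prx37 (-2.47, adjusted p = 0.0321, edgeR); AT2G18150 lost and AT5G58390 gained a call in cdk8-1 relative to Col-0. For the other changes the cause was not tested. Low counts kept 37 members out of the main test. With no filter on low counts, jazD against Col-0 gave 14 members up and 4 down, and jazD cdk8-1 against jazD gave 12 down. The shares of all loci called with no filter are not given here, so these counts are not set against them.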
